A study of Mus musculus with 12 samples.

Results

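The genotype by day interaction is the change of a gene from day 0 to day 7 in cells labelled knockout of Sirt7, minus its change over the same days in wild type cells. It was computed from all 12 of the 12 samples of the series. RNA-seq was done on female embryonic stem (ES) cells of the mouse, hybrids of the strains C57BL6 and CAST, in 4 groups of 3 libraries: wild type at day 0, wild type at day 7, SIRT7-KO at day 0 and SIRT7-KO at day 7. All cells had grown with leukaemia inhibitory factor (LIF) up to day 0, and the cells of day 7 were taken 7 days after LIF was withdrawn. The sources used here do not say how the deletion was made or whether each genotype is 1 clone. The samples also carry a treatment label of LIF or None. It follows replicate and genotype, not day, and was not used. The labels do not call the 3 replicates separate cultures, so that the p-values measure the spread between these libraries, which may be technical. A negative interaction means that the gene rose less, or fell more, in the libraries labelled knockout.

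ES cells kept in LIF hold the naive pluripotent state through STAT3 and a network of transcription factors that includes Nanog, Esrrb, Klf4 and Tfcp2l1. After LIF withdrawal this network is shut down and genes of the germ layers are switched on, while in female cells Xist RNA coats 1 of the X chromosomes and silences it. SIRT7 is a nuclear deacetylase of the sirtuin family, known for its work at ribosomal DNA and on acetylated histone H3. The interaction asks whether the course of these 7 days differed between the genotypes, apart from any difference that was the same on both days.

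Sirt7 itself (chr11:120618372-120625240, minus strand, GRCm38) did not check the labels. Its level in CPM (read counts scaled to the total of each library) was 19.2, 23.8 and 16.9 in the libraries labelled knockout at day 0 and 25.1, 20.1 and 23.8 at day 7. In wild type it was 12.7, 8.03 and 10.3 CPM on day 0, then 10.2, 10.6 and 15.3 on day 7. In these counts every library labelled knockout was above every wild type library, on both days. In the sums of the authors' allele-divided counts, described below, knockout replicate 1 of day 0 had 18.1 CPM, within the wild type range of 17.1 to 21.8, and the other 5 knockout libraries had 31.7 to 38.2. The interaction of Sirt7 was -0.01 on the log2 scale (SE 0.30, edgeR adjusted p = 1.0), which is smaller than its own SE. The groups are called wild type and knockout by their labels, and each direction below rests on them.

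Library totals ran from 25190483 to 69079368 counts. Naive ES cell markers (Nanog, Esrrb, Zfp42, Klf4 and Pou5f1) summed to 4556.7 to 4877.3 CPM over the libraries of day 0 and to 187 to 216 at day 7, so that the label "ES cells" was borne out at day 0 and the markers were low in both genotypes at day 7. The trophoblast-defining genes Elf5 and Tpbpa were at or near 0 in all libraries. Of 19235 genes tested, 12519 changed between days in wild type (65.1%) and 12196 in knockout (63.4%), by edgeR at an adjusted p of at most 0.05. The changes of the 2 genotypes ran together across genes (Pearson r 0.924, Spearman rho 0.937 over 19235 genes, which are not independent replicates). The median size of a change was 1.01 log2 units in wild type and 0.97 in knockout, and the median size of the interaction was 0.26.

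**Figure D1:**
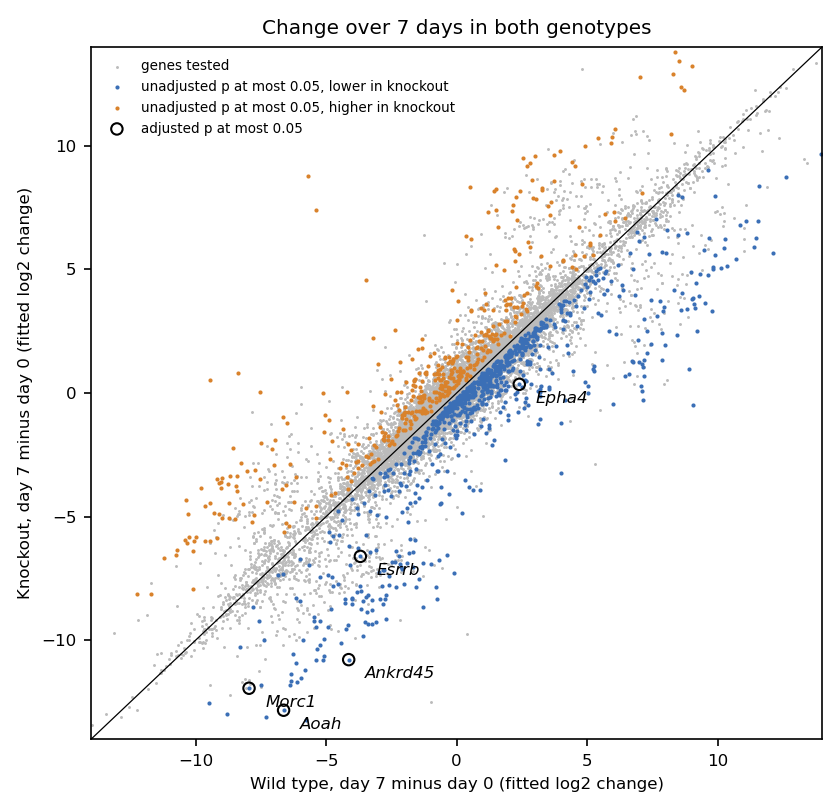
Fitted log2 change from day 0 to day 7 of each of 19235 genes in wild type (horizontal axis) and knockout (vertical axis), with the line of equal change. Circles mark the 5 genes called in the interaction, all below the line; coloured points have an unadjusted p of at most 0.05 (441 above, 878 below), and changes of genes with no count in a group depend on the prior count of the fit.

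By edgeR's quasi-likelihood test, 5 genes were called in the interaction at an adjusted p of at most 0.05, which is 0.026% of the genes tested, and all 5 were lower in knockout. They were Aoah, Morc1, Esrrb and Epha4 (adjusted p = 0.0152 each) and Ankrd45 (adjusted p = 0.0301). At an unadjusted p of at most 0.05, 878 genes (4.56%) were lower and 441 (2.29%) higher in knockout. In 541 genes (2.81%) the largest change possible between single libraries in knockout was still below the smallest in wild type, and in 271 (1.41%) the reverse held. The lower share of the unadjusted list was 66.6% with TMM factors, 63.4% with relative log expression factors and 54.5% with library totals alone (680 lower, 567 higher). Without knockout replicate 1 of day 0 it was 814 lower against 634 higher.

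The calls were few and close to the threshold. Without knockout replicate 3 of day 7 no gene was called by edgeR (1151 at an unadjusted p of at most 0.05, adjusted p = 0.0606 for Aoah, Esrrb, Morc1 and Epha4). Over the 12 fits without 1 library the interaction ran from -3.11 to -2.63 for Esrrb, from -4.41 to -3.51 for Morc1 and from -2.18 to -1.79 for Epha4. Limma-voom called 0 (1255 unadjusted), while DESeq2 called 143, among them all 5 of the edgeR calls. The second limit is the count table. The authors also deposited gene counts divided into genome 1, genome 2 and unassigned reads, and these 3 columns summed per gene held 94.7 to 96.4% of the counts of the whole table. The same fit on these sums, chosen after seeing the data, called 8 genes, 3 of them shared: Aoah, Morc1 and Ankrd45 (adjusted p = 0.0315 each). Esrrb and Epha4 were not called there (adjusted p = 0.207 and 0.683).

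Before their values, start regions of Aoah, which had no count in knockout at day 7, and of Esrrb are shown. Ankrd45 had no count in that group either and is not shown. For Esrrb only the starts with an entry are shown. Its transcripts, divided differently between groups, also began at other annotated starts. The sequences are the 250 bases before each annotated start, from RefSeq (GRCm38.p6), 5′ to 3′ on the plus strand, with CpG dinucleotides in capitals. Of the 5 called genes 4 had an entry.
Aoah, chr13:20793863-20794112: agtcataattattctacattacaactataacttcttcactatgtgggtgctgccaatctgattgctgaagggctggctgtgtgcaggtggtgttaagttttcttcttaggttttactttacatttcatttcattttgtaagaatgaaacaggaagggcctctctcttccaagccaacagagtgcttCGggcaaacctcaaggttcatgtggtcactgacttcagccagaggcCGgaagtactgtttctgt
Esrrb, first start, chr12:86360867-86361116: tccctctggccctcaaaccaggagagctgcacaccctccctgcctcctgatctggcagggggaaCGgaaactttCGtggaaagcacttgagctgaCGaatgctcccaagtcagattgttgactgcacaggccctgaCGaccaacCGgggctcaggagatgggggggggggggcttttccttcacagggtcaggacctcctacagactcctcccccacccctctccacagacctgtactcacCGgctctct
Esrrb, second start, chr12:86421394-86421643: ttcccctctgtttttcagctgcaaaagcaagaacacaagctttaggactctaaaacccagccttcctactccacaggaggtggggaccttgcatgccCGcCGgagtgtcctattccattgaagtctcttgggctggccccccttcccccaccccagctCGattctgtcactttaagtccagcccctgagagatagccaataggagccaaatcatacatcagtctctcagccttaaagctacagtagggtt
The Aoah region held 2 CpG, the first Esrrb region 6 and the second 3. The regions of Ankrd45 and Epha4, not shown, held 14 each. Over 32851 such regions of the mouse genome the median was 6, with quartiles of 2 and 16.

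Aoah, Morc1 and Ankrd45 fell over 7 days in both genotypes and fell further in knockout. Aoah (chr13:20794113-21036617) encodes acyloxyacyl hydrolase, an enzyme that removes fatty acids from bacterial lipopolysaccharide. It stood at 23.5, 19.99 and 24.7 CPM in wild type and 22.4, 27.3 and 26.8 in knockout at day 0. At day 7 wild type held 0.208, 0.238 and 0.232 CPM, which is 31 counts in all, and the 3 knockout libraries held no count. The fall was 98.2-fold in wild type and at least 846-fold in knockout (3 counts over the group taken as the floor), so that the fall in knockout was at least 8.61-fold larger. At day 0 the genotypes overlapped, and the gap was at day 7 only.

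Morc1 (chr16:48431237-48630900) encodes a germline ATPase known for transposon silencing. It had 133, 169 and 166 CPM in wild type and 165, 158 and 193 in knockout at day 0, with overlap. At day 7 it had 0.532, 0.757 and 0.542 CPM in wild type (88 counts) and 0.0519, 0 and 0.0645 in knockout (4 counts; 95% counting interval of the group 0.0110 to 0.103 CPM). Its log2 change was -7.95 (SE 0.23) in wild type and -11.94 (SE 0.31) in knockout, an interaction of -3.99 (SE 0.46, edgeR adjusted p = 0.0152). It was called in 10 of the 12 fits without 1 library and lost without knockout replicate 1 or replicate 3 of day 7.

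Ankrd45 (chr1:161142691-161170498), an ankyrin repeat gene, had 6.47, 7.16 and 7.19 CPM in wild type and 6.38, 6.89 and 5.25 in knockout at day 0. At day 7 it had 0.278, 0.386 and 0.542 CPM in wild type and no count in any knockout library. It fell 18.3-fold in wild type and at least 199.5-fold in knockout. The call was lost in 8 of the 12 fits, those without any of the 3 wild type libraries of day 0, wild type replicate 2 of day 7, knockout replicate 1 of day 0 or any knockout library of day 7 (adjusted p over the 12 fits 0.0288 to 0.0718). In all 3 genes, then, the genotypes shared a level at day 0 and differed by what was left at day 7. Fam178b had the same form without passing: 24 counts were left in wild type at day 7 and 0 in knockout (edgeR adjusted p = 0.119), a fall of 80.0-fold against at least 363-fold.

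Esrrb and Epha4 had their gap at day 0. Esrrb (chr12:86361117-86521628), the orphan nuclear receptor of the naive network, had 54.5, 38.5 and 38.5 CPM in wild type and 205, 315 and 173 in knockout at day 0. At day 7 it had 3.51, 3.74 and 2.86 CPM in wild type and 2.26, 2.26 and 2.58 in knockout. The groups were apart on both days, in opposite directions, and the log2 change of Esrrb was -3.69 in wild type and -6.61 in knockout (interaction -2.92, SE 0.32, edgeR adjusted p = 0.0152).

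The level of Esrrb in knockout at day 0 depended on the count table and on the transcript that the counts were assigned to. In the summed allele-divided counts the same 3 libraries had 576, 90.7 and 529 CPM, against 57.5, 41.8 and 41.4 in wild type. Those knockout libraries stayed above wild type, but replicate 2 was the highest of the 3 in the whole table and the lowest in the summed one. There the interaction was -3.65 with an SE of 0.74 (edgeR adjusted p = 0.207). Within the authors' transcript estimates, 93.2% of Esrrb counts in knockout at day 0 lay on transcripts from the second start shown above, against 11.9% in wild type (0.245 to 35.3% by library). In wild type at day 0, 31.7% lay on the transcript from the first start and 56.0% on a shorter one, Esrrb-206, of 1344 bases. Esrrb-206 begins at another annotated start (chr12:86470117), whose region is not shown. At day 7 the wild type libraries ranged from 0 to 100% for the first start, and reads of genome 1 alone, summed over each group, gave an interaction of -1.18. How far transcript assignment enters the gene total was not tested.

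Epha4 (chr1:77367185-77515088, minus strand), a receptor tyrosine kinase for ephrins, had 9.63, 9.93 and 8.44 CPM in wild type on day 0, then 44.1, 56.3 and 47.7 at day 7. In knockout the day 0 values were 50.2, 34.7 and 32.0 CPM and those of day 7 were 49.7, 53.5 and 46.0. It rose by 2.40 log2 units in wild type (SE 0.18) and did not pass in knockout (0.35, SE 0.17, edgeR adjusted p = 0.0841), and the interaction was -2.05 (SE 0.24, adjusted p = 0.0152). The knockout libraries of day 0 lay near the level of day 7. In the summed counts wild type at day 0 spread from 10.9 to 28.1 CPM, and the interaction was -1.22 (SE 0.46, adjusted p = 0.683). Epha4-205, a transcript marked for nonsense-mediated decay, took 0% of Epha4 counts in wild type at day 0, 38.8% in knockout at day 0 and 86.3 and 82.4% at day 7. The 38.8% was not shared by the knockout libraries of day 0. Their mean for this transcript was 16.4 CPM with an SD of 28.3, as when a single library holds all of its counts.

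**Figure D2:**
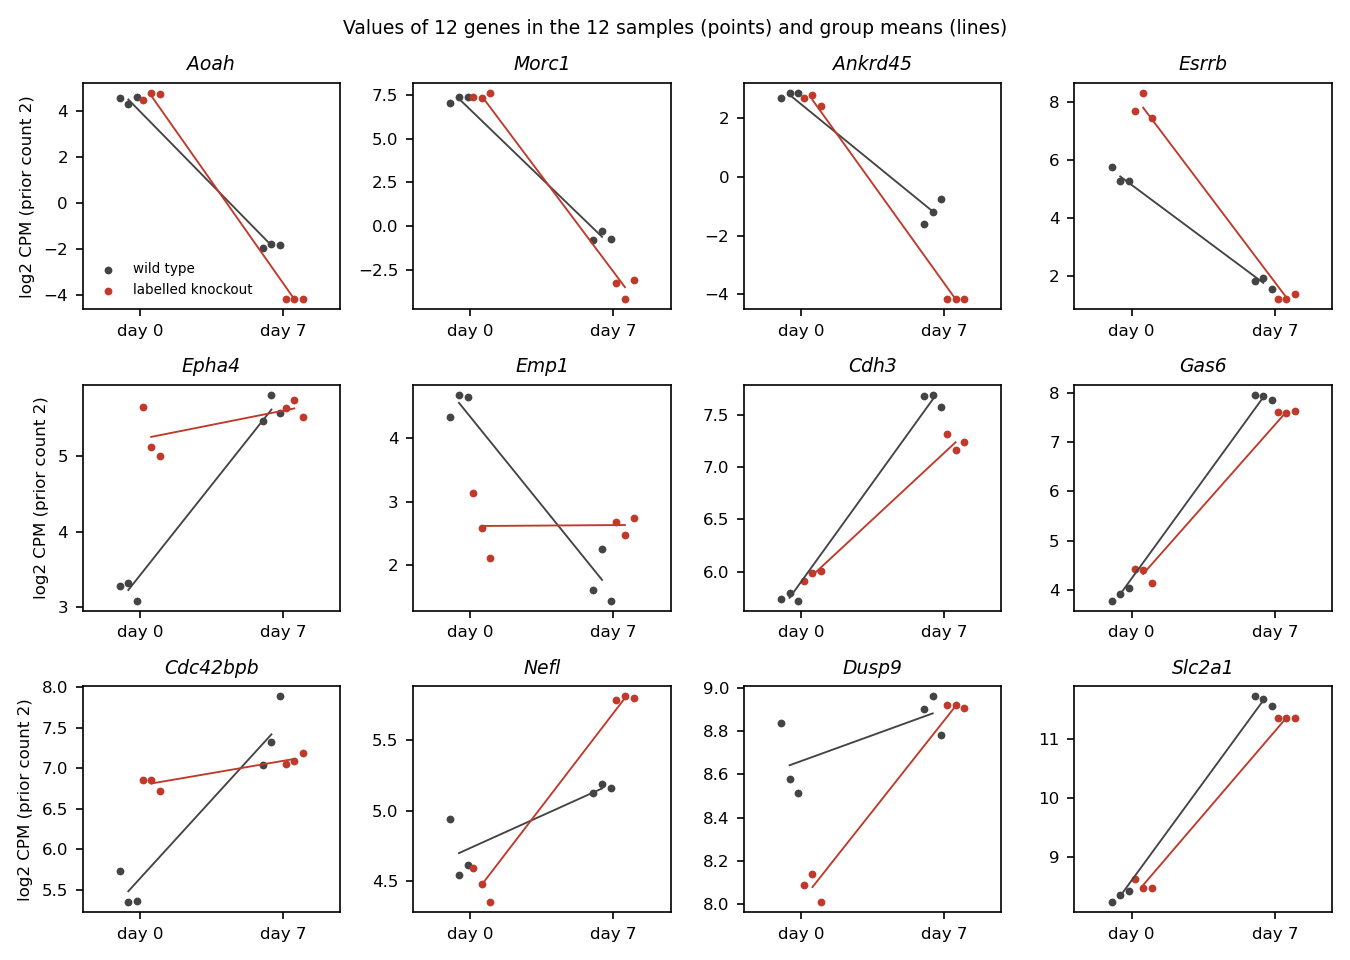
Values of 12 genes as log2 CPM (prior count 2) in each sample at day 0 and day 7, grey for wild type and red for libraries labelled knockout; lines join group means and each panel has its own scale. Aoah, Morc1 and Ankrd45 part at day 7, Esrrb, Epha4, Emp1, Cdc42bpb and Dusp9 are furthest apart at day 0, and Nefl parts at day 7.

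None of the next genes in the ranking passed the adjusted threshold, so their values are given as measured. Among the 10 genes of smallest p in each direction (mean log2 CPM of at least 2), P-cadherin Cdh3 had 53.3, 55.5 and 52.9 CPM in wild type and 60.0, 63.4 and 64.2 in knockout at day 0. At day 7 it had 204, 206 and 190 in wild type and 159, 143 and 151 in knockout. Its groups were apart on both days, higher in knockout at day 0 and lower at day 7 (interaction -0.62, SE 0.09, edgeR adjusted p = 0.0705).

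Gas6, a secreted ligand of the TAM receptor kinases, crossed in the same way. It went from 13.7, 15.02 and 16.5 to 249, 244 and 230 CPM in wild type and from 21.3, 21.3 and 17.7 to 195, 193 and 199 in knockout (interaction -0.71, SE 0.13, adjusted p = 0.177). Cdc42bpb, a kinase of the actin cytoskeleton, had 53.1, 40.6 and 41.1 CPM in wild type and 115, 116 and 105 in knockout at day 0, against 132, 160 and 237 and 133, 137 and 146 at day 7 (interaction -1.67, SE 0.26, adjusted p = 0.0752). Its groups were apart at day 0 and overlapped at day 7.

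On the higher side, Nefl, the light neurofilament subunit, overlapped between genotypes at day 0 and was apart at day 7. It had 34.8, 36.5 and 35.7 CPM in wild type and 55.1, 56.2 and 55.9 in knockout at day 7 (interaction 0.88, SE 0.16, edgeR adjusted p = 0.196). Dusp9, an X-linked phosphatase that acts on ERK, had 457, 382 and 366 CPM in wild type and 272, 282 and 258 in knockout at day 0 and overlapped at day 7 (interaction 0.60, SE 0.12, adjusted p = 0.212). Emp1, an epithelial membrane protein gene, had 20.01, 25.5 and 24.98 CPM in wild type and 8.76, 5.98 and 4.29 in knockout at day 0, and an interaction of 2.71 (SE 0.39, adjusted p = 0.0649).

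The choice of count table separated these 20 ranked genes. All 20 had the same sign in the summed counts, and 14 had an unadjusted p of at most 0.05 there, 9 of the 10 lower and 5 of the 10 higher ones. The interactions of Cdh3 (-0.61), Gas6 (-0.70), Cdc42bpb (-1.63), Nefl (0.88) and Dusp9 (0.61) were close to those of the whole table. Emp1 went from 2.71 to 0.78, Impdh1 from 2.16 to 0.12, Mrps12 from 1.41 to 0.39, Rragd from 1.21 to 0.23, Cybc1 from 1.55 to 0.51 and the histone gene H2aj from -2.39 to -0.17. Of all genes tested, 1048 (5.45%) differed by at least 1 log2 unit between the tables. Among the 20 ranked genes and Ankrd45, 9 had at least 20 reads of each genome in each group. In 4 of these 9, both genomes had the sign of the gene total. Gas6 was at -0.52 and -0.86 from reads of genome 1 and genome 2, while Impdh1 was at -0.99 and -0.62, opposite to its total.

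**Figure D3:**
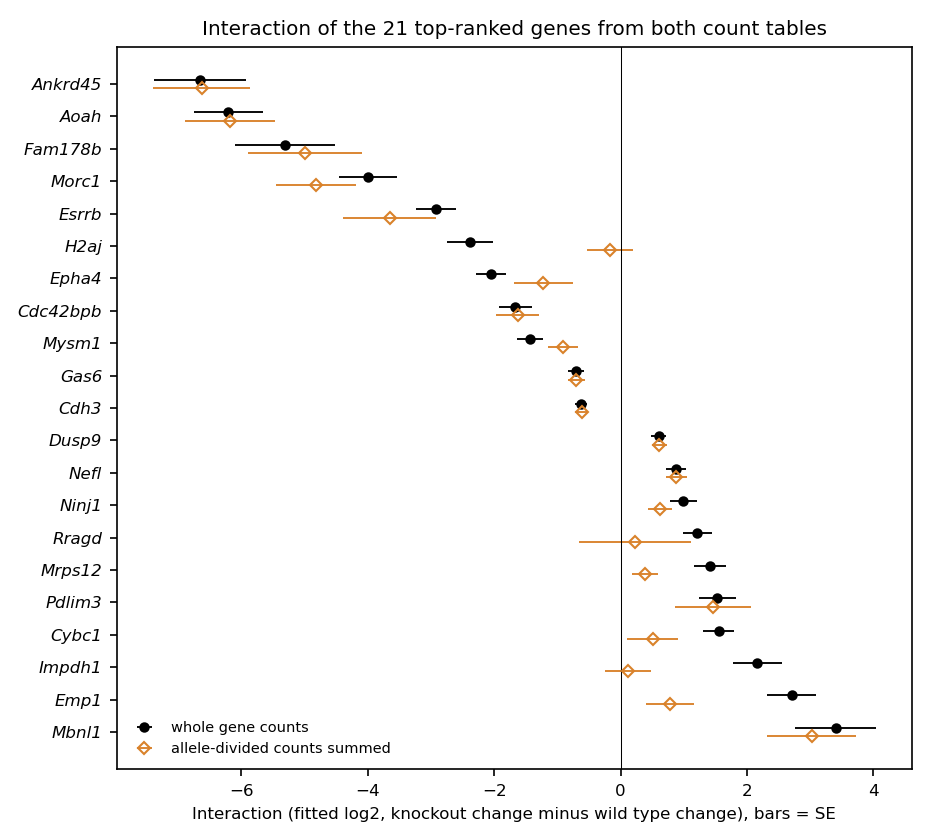
Interaction (fitted log2, with SE) of the 20 ranked genes and Ankrd45 from the whole gene counts (black) and from the summed allele-divided counts (orange). H2aj, Impdh1, Emp1, Mrps12, Rragd and Cybc1 lie nearer 0 in the summed counts; the fitted values of Aoah, Ankrd45 and Fam178b, which have no count in knockout at day 7, depend on the prior count and are not bounds.

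By process, the integrated stress response list had the lowest median of the 38 lists in the whole table, and the second lowest, after endothelial and blood genes, in the summed counts. This pathway raises enzymes of amino acid and serine synthesis, transporters and tRNA synthetases through ATF4 when amino acids are short or protein folding is impaired. Of its 25 genes, 10 were lower in knockout at an unadjusted p of at most 0.05 and none was higher, against 4.56% and 2.29% of all genes. The median interaction of the list was -0.31, against -0.05 over all genes. No member passed the adjusted threshold.

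The serine synthesis enzyme gene Phgdh had 149, 159 and 152 CPM in wild type and 162, 170 and 153 in knockout at day 0, with overlap. At day 7 it had 194, 162 and 159 in wild type and 123, 117 and 127 in knockout, with no overlap (interaction -0.56, SE 0.12, edgeR adjusted p = 0.281). Asparagine synthetase, Asns, was at 161, 145 and 157 CPM in wild type and 116, 115 and 108 in knockout at day 7, with overlap at day 0 (interaction -0.37, SE 0.09, adjusted p = 0.356). Seryl-tRNA synthetase, Sars, was at 244, 200.4 and 204 CPM against 167, 150 and 155 at day 7 (interaction -0.52, SE 0.13, adjusted p = 0.355).

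The gap of the stress response list was at day 7: the median difference of knockout from wild type was -0.04 at day 0 and -0.28 at day 7. The median change of its genes over 7 days was -0.64 in wild type and -1.07 in knockout (log2). The interaction of Ddit3, a transcription factor of the pathway, was 0.32 (SE 0.33) and that of Atf4 itself -0.39 (SE 0.83), neither past the test and both named after their values were seen. Over the 12 fits without 1 library the median of the list ran from -0.35 to -0.19, the latter without wild type replicate 1 of day 7. It was below that of all genes in all 12, and in the summed counts it was -0.34 with 10 lower genes, 9 of them the same.

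Among glycolysis genes 9 of 27 were lower (33.3%) and 2 higher (7.41%) at an unadjusted p of at most 0.05, against 4.56% and 2.29% of all genes. The median was -0.26. This list covers glucose uptake, the glycolytic enzymes and hypoxia-induced genes around them. The glucose transporter gene Slc2a1 had 303, 330 and 345 CPM in wild type and 397, 356 and 358 in knockout at day 0. It had 3358, 3252 and 3005 in wild type and 2606, 2616 and 2595 in knockout at day 7 (interaction -0.48, SE 0.09, edgeR adjusted p = 0.212), so that the genotypes were apart on both days and crossed. Triosephosphate isomerase, Tpi1, had 281, 255 and 252 CPM against 218, 210 and 224 at day 7 (interaction -0.58, SE 0.14, adjusted p = 0.355).

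Bnip3, a mitophagy receptor gene, had 17.3, 15.4 and 20.8 CPM in knockout and 8.87, 10.9 and 13.1 in wild type at day 0, and 1.97, 1.82 and 1.87 against 2.87, 2.91 and 2.25 at day 7 (interaction -1.20, SE 0.26, edgeR adjusted p = 0.296). The 2 higher genes were the second glucose transporter Slc2a3 (1.96, SE 0.74) and the regulatory enzyme Pfkfb3 (1.08, SE 0.37), named after their values were seen. The median of the list was between -0.30 and -0.17 over the 12 fits, and -0.31 in the summed counts, where 9 genes were lower and 0 higher. For Slc2a1 the summed counts gave -0.99 (SE 0.28) and for Bnip3 -1.16 (SE 0.27). The summed counts of Slc2a1 were uneven at day 0. They held 3858 of 7596 counts in wild type replicate 1 and 9395 of 9407 in knockout replicate 2. Knockout at day 0 spread over 236, 372 and 170 CPM there, so that the larger value for Slc2a1 is not read as a larger interaction.

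Cholesterol synthesis genes, targets of the sterol-sensing factor SREBP2, had a median log2 change over 7 days of 2.27 in wild type and 1.92 in knockout. Of 24 genes, 23 had an interaction below 0, against 56.3% of all genes. At an unadjusted p of at most 0.05, 5 were lower (20.8%), against 4.56% of all genes. Nsdhl, an X-linked sterol dehydrogenase gene, had an interaction of -0.27 (SE 0.09, edgeR adjusted p = 0.573), and Hmgcs1, at the entry to the pathway, -0.55 (SE 0.22, adjusted p = 0.648).

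The median of the cholesterol list was -0.24 with a range of -0.28 to -0.16 over the 12 fits. The highest of these values was without knockout replicate 1 of day 0, the library in which Hmgcs1 stood at 97.0 CPM against 63.3 and 70.4 in the other 2. In the summed counts the median was -0.20 and 3 genes were lower, 2 of them the same.

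Naive pluripotency genes had a median log2 change of -5.21 in wild type and -5.30 in knockout. In the interaction 7 of 29 were lower (24.1%) and 1 higher (3.45%) at an unadjusted p of at most 0.05. The shares over all genes were 4.56% and 2.29%. Dppa5a, an RNA-binding protein of pluripotent cells, overlapped at day 0 and had 18.4, 17.1 and 15.9 CPM in wild type and 12.5, 9.90 and 9.77 in knockout at day 7 (interaction -0.66, SE 0.15, edgeR adjusted p = 0.309). Tfcp2l1, a STAT3 target that holds the naive state, had 2.17, 2.82 and 2.75 CPM against 2.26, 1.76 and 1.322 at day 7, where the groups overlapped (interaction -0.68, SE 0.21, adjusted p = 0.539). Socs3, the feedback inhibitor that STAT3 induces, had 33.4, 35.5 and 30.8 CPM in wild type and 26.4, 26.6 and 30.3 in knockout at day 7, and 82.4, 75.6 and 76.1 against 103, 87.3 and 84.3 at day 0 (interaction -0.49, SE 0.14, adjusted p = 0.492). Of the 29 genes 19 had an interaction below 0 and 10 above, against 56.3% of all genes below 0. Among those above was Pou5f1, the Oct4 gene, at 0.28 (SE 0.10), with 157, 146 and 136 CPM in wild type and 160, 155 and 158 in knockout at day 7 (named after its value was seen). Nanog overlapped at day 0 and had 29.2, 28.3 and 26.6 CPM in wild type and 31.4, 32.6 and 33.2 in knockout at day 7. The list had a median of -0.15, from -0.26 to -0.09 over the 12 fits, the latter without knockout replicate 1 of day 0, and -0.29 in the summed counts. LIF and STAT3 signalling shared Socs3, Tfcp2l1 and Klf4 as its 3 lower genes of 16 (median -0.19).

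Among p53 targets 4 of 28 were lower (14.3%) and 1 higher (3.57%), against 4.56% and 2.29% of all genes. Their median was -0.19 with a range of -0.24 to -0.08, the latter without knockout replicate 1 of day 0. Zmat3, an RNA-binding growth suppressor, had 44.5, 46.3 and 51.5 CPM in wild type and 84.7, 97.3 and 94.6 in knockout at day 0, but overlapped at day 7 (interaction -0.77, SE 0.18, edgeR adjusted p = 0.344). In the summed counts Zmat3 overlapped at day 0 as well, with 49.5, 43.5 and 59.4 CPM in wild type and 57.1, 73.5 and 47.6 in knockout. Its interaction there was -0.48 (SE 0.29). Sesn2, a leucine sensor also counted in the stress response list, was at -0.35 (SE 0.09). The gap of this list lay at day 0, with a median difference of 0.24 there and 0.04 at day 7.

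Lineage lists had medians on both sides of 0. Their counts of lower and higher genes stand beside 4.56% and 2.29% of all genes at an unadjusted p of at most 0.05. The 31 mesoderm genes had a median of 0.09 (2 lower, 1 higher, 0.04 with genes that have no count in a group at their bound), the 25 cardiac and contractile genes 0.06, the 19 neural genes 0.05 and the 35 Hox genes -0.09 (-0.12 at the bound, with a mean of 0.22). Hand1, a transcription factor of lateral and extraembryonic mesoderm, rose in both genotypes, from 2.92, 2.14 and 2.36 to 2066, 1941 and 1828 CPM in wild type and from 2.93, 2.99 and 2.67 to 1538, 1484 and 1502 in knockout. It was apart at day 7 only (interaction -0.59, SE 0.14, edgeR adjusted p = 0.344). Endothelial and blood genes had 4 of 24 lower and none higher, with a median of -0.21 that reached -0.72 without wild type replicate 3 of day 0 and was -0.35 in the summed counts. The endothelial adhesion gene Pecam1 had 38.5, 43.8 and 41.2 CPM in wild type and 56.1, 57.1 and 56.3 in knockout at day 0, and 86.5, 92.4 and 86.7 against 82.9, 85.6 and 83.8 at day 7 (interaction -0.53, SE 0.10, adjusted p = 0.196). The angiopoietin receptor gene Tek was at -1.27 (SE 0.25), with its gap at day 0, and the progenitor marker Cd34 at -1.79 (SE 0.47). Pecam1 and Tek rose over 7 days in both genotypes, while Cd34 fell in both, by a log2 change of -2.19 in wild type and -3.98 in knockout. At day 7 Cd34 was near the floor, with 86 counts over the wild type group and 21 over the knockout group.

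Markers of the cell types that 7 days can yield moved beside these lists. Summed over each list, mesoderm markers at day 7 were 2052 to 2282 CPM in wild type and 1741 to 1797 in knockout, a sum carried by Hand1. The other 2 mesoderm markers were higher in every knockout library of day 7: T had 129, 144 and 131 CPM in wild type and 158, 158 and 161 in knockout, and Pdgfra 87.2, 97.1 and 92.0 against 101, 98.1 and 102. The fibroblast list was 1409 to 1641 and 1163 to 1192. Trophoblast markers were 78.3 to 91.5 and 61.9 to 69.0, all but Cdx2 at or near 0, and blood markers 7.01 to 8.59 and 3.48 to 4.42. The blood gap was carried by Hbb-bh1, with means of 7.04 CPM in wild type and 3.47 in knockout. Gata1 overlapped at day 7, and its mean fell over 7 days from 5.69 to 0.583 CPM in wild type and from 5.84 to 0.520 in knockout. Endoderm markers overlapped (9.06 to 14.9 and 7.21 to 9.13), while neural markers were higher in knockout (66.3 to 81.8 and 83.2 to 86.2), of which nearly all was Tubb3. The fibroblast sums were collagen genes, Col1a1 and Col1a2, and Pdgfrb, while the fibroblast marker S100a4 stayed at or below 1.22 CPM. Thy1, also in that list, went the other way over 7 days. Its mean fell from 22.2 to 4.39 CPM in wild type and from 25.1 to 4.32 in knockout, with overlap at day 7. In these bulk samples fewer cells of a type and less RNA per cell cannot be told apart. The part of these markers in the list results was not tested.

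The BMP and Id list was the only one of the 38 whose median was above 0 in all 12 fits without 1 library (0.19, from 0.08 to 0.27). These genes encode bone morphogenetic proteins and the helix-loop-helix inhibitors they induce. Of its 21 genes 1 was higher at an unadjusted p of at most 0.05 and none lower, which is near the background share. That gene was Msx2, a homeobox target of BMP, with 12.6, 9.18 and 11.5 CPM in wild type and 5.35, 8.52 and 7.40 in knockout at day 0 and overlap at day 7 (interaction 0.66, SE 0.22, edgeR adjusted p = 0.565). In the summed counts the median of this list was 0.02.

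Growth and housekeeping lists stayed near the median of all genes. The 77 mitochondrial ribosome genes had a median of 0.01 and the 82 nuclear genes of oxidative phosphorylation 0.01, with 1 gene higher and 0 lower between them. Of 82 cytosolic ribosomal protein genes 71 were below 0, but the median was -0.10, it was -0.19 without knockout replicate 1 of day 0 and -0.04 without replicate 3, and no member was lower at an unadjusted p of at most 0.05. Genes of ribosome biogenesis and of RNA polymerase I, the machinery that SIRT7 is known to act on, had a median of -0.05 with 1 of 51 lower. Of the 38 lists, 19 had a median below 0 in all 12 fits, and 13 were below the median of all genes in all 12.

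**Figure D4:**
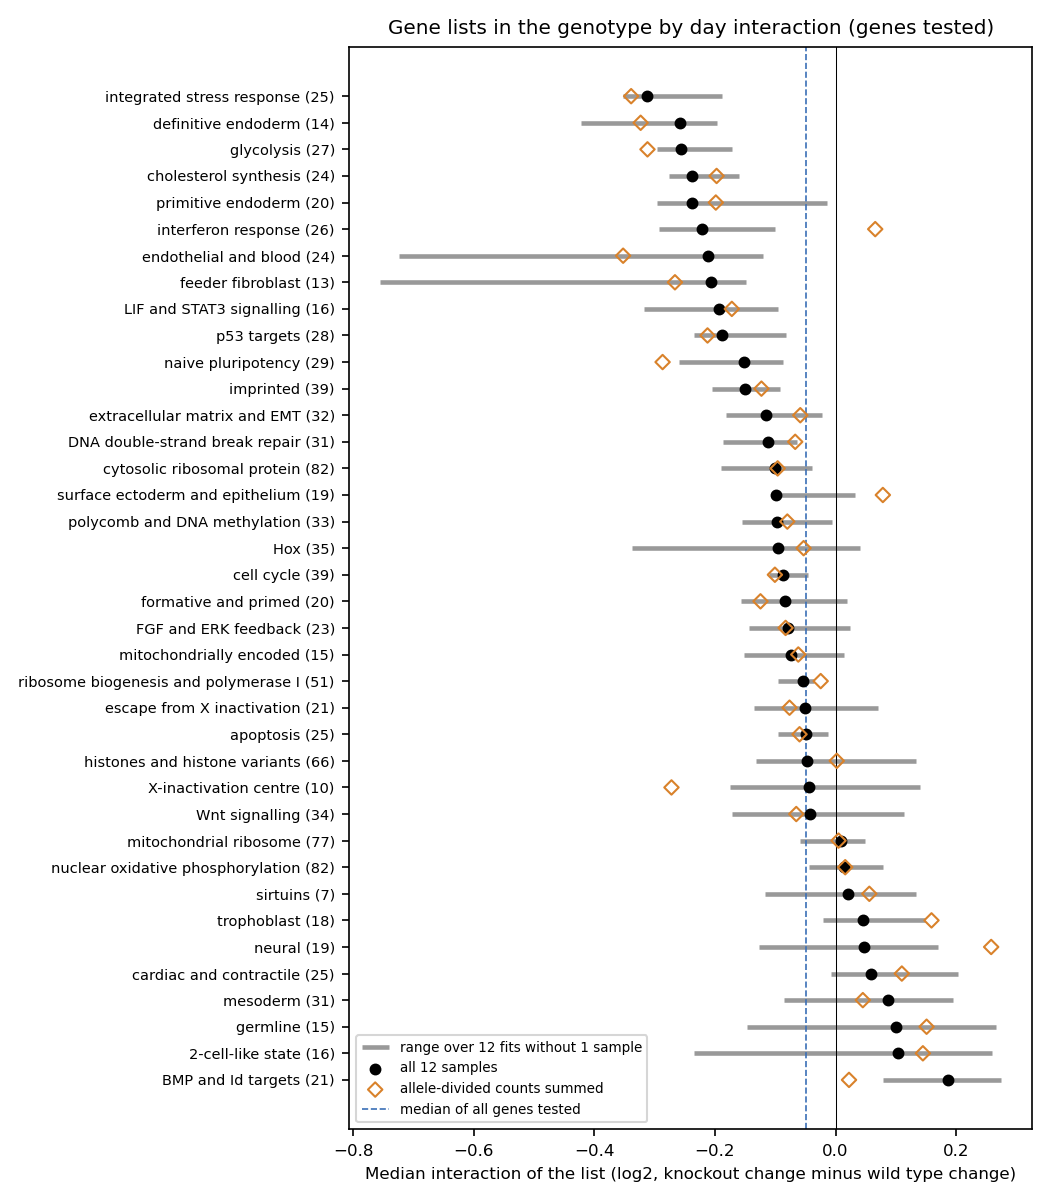
Median interaction of each of 38 gene lists (number of genes tested in brackets): black points from all 12 samples, grey bars the range over the 12 fits without 1 sample, orange diamonds the summed allele-divided counts, dashed line the median of all genes. The integrated stress response, glycolysis and cholesterol lists lie below the dashed line in every fit and in both tables, while the interferon list changes sign between tables (-0.22 and 0.07).

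The X chromosome, named in the title of the series, did not stand apart in the interaction. The 768 X-linked genes had a median of -0.048 and the 18413 autosomal genes -0.049. X-linked genes moved by a median of -0.43 between days in wild type and -0.48 in knockout, against 0.03 and 0.00 for autosomal genes. Of the X-linked genes 38 (4.95%) were lower and 15 (1.95%) higher at an unadjusted p of at most 0.05, near the shares of all genes. Xist, the RNA that starts X inactivation, had 29.6, 36.3 and 41.0 CPM in wild type and 37.5, 42.2 and 44.3 in knockout at day 0, and 338, 390 and 389 against 416, 441 and 434 at day 7. It rose by 3.38 log2 units in both genotypes, with an interaction of -0.00 (SE 0.16, edgeR adjusted p = 1.0). Its antisense partner Tsix had an interaction of -0.09 with an SE of 1.28, since single libraries of day 0 ranged from 3.10 to 64.6 CPM; without use of strand, reads where the 2 genes overlap cannot be told apart. By chromosome, the median relative to all genes was highest for chromosome 6 (0.05, from 0.03 to 0.07 over the 12 fits) and lowest for chromosome 1 (-0.03, from -0.04 to -0.01).

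Sorted by the mean change of both genotypes, which does not use the difference between them, the shift below 0 was larger in rising genes. By that mean, 14351 genes changed (74.6%), 7164 up and 7187 down. Genes that rose had a median interaction of -0.09, with 464 lower and 182 higher at an unadjusted p of at most 0.05. Genes that fell had a median of -0.02, with 308 lower and 179 higher. The median of the rising genes was -0.01 without knockout replicate 1 of day 0, against -0.01 over all genes in that fit, so that this shift rested largely on 1 library.

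**Figure D5:**
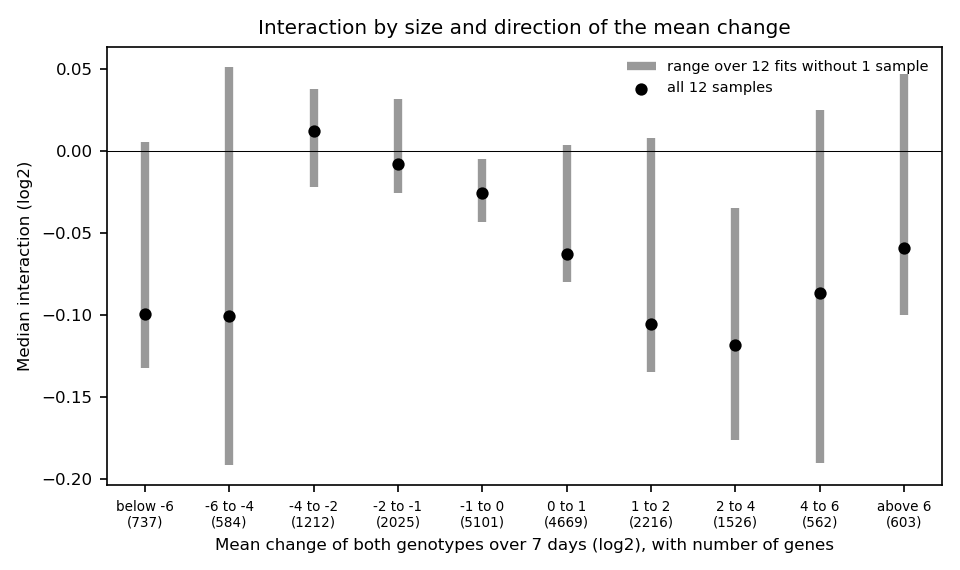
Median interaction (log2) of genes in bins of their mean change over 7 days (number of genes in brackets), with grey bars for the range over the 12 fits without 1 sample. Genes that rose by 0 to 4 log2 units lie between -0.06 and -0.12, and the bars of the bins from 0 to 2 reach above 0.

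Where the gap lay also differed from gene to gene. Of the 878 genes lower in the interaction, 528 (60.1%) had the larger difference between genotypes at day 0 and 350 at day 7, and of the 441 higher genes 253 (57.4%) and 188, against 54.6% with the larger difference at day 0 over all genes. The difference changed sign between days in 661 of the 878 (75.3%) and in 38.8% of all genes, but choosing genes by the interaction itself favours such a change of sign, so that nothing is read from it. The spread between replicates differed as well: the median SD of log2 CPM was 0.27 in knockout at day 0, 0.22 and 0.20 in wild type at day 0 and day 7, and 0.16 in knockout at day 7. The group of widest spread, knockout at day 0, was also the one whose replicate 1 moved several medians above.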

How the data were processed

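The members and gene lists were chosen with earlier results of these data known. Upstream, the submitters' processing notes name StringTie 1.3.3, HISAT2 2.1.0, DESeq2 1.32.0, SAMtools 0.1.19, Trimmomatic 0.36 and FastQC 0.11.3, and as builds GRCm38 and mm10. Settings, annotation and strand: not given in the sources used here. Expected counts per gene and per transcript (not normalized), and expected counts per gene divided by genome, were deposited by the authors. All values were whole and entered the tests unrounded.

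All 12 samples were fitted together with edgeR 4.0.16 under R 4.3.3 (filterByExpr on the 4 groups, minimum count 10, TMM, 1 coefficient per group, quasi-likelihood test, Benjamini-Hochberg over 19235 genes, threshold 0.05). The filter keeps a gene through any 1 group. Log2 CPM used a prior count of 2, the floor was 3 counts over a group, and intervals cover counting error only. Alternatives used DESeq2 1.42.0 and limma 3.58.1. Replicates of a group differed by more than sampling noise (chi-square per degree of freedom 23.6 to 59.5). In simulated data of 19235 genes, each size of change was given to 50 genes of mean log2 CPM of at least 2. These had more than 50 counts in both wild type groups and in knockout at day 7. The interaction test called 4% of those changed by 0.5 log2 units, 26% of those changed by 1, 74% of those changed by 2 and 100% of those changed by 3. Genes near 0 at day 7, such as Aoah, Morc1 and Ankrd45, could not be drawn, so these shares do not cover them. The same test called 2 of the 19035 genes that were given no change. Of 55487 gene identifiers 55227 matched GENCODE on GRCm38.

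Named genes are Sirt7, Xist and Tsix, all called genes, the 10 of smallest p in each direction (mean log2 CPM of at least 2, symbols of predicted genes left out) and, per list, the 3 or fewer members of smallest p at or under 0.05; exceptions are stated, and 1 gene that the rule names is not reported here. The 38 lists covered germline genes, the 2-cell-like, naive, formative and primed states, mesoderm, cardiac and contractile, endothelial and blood, neural, definitive endoderm, primitive endoderm, trophoblast, surface ectoderm, Hox, extracellular matrix, feeder fibroblast, X-inactivation centre, escape, sirtuins, cytosolic and mitochondrial ribosome, oxidative phosphorylation, mitochondrially encoded, glycolysis, ribosome biogenesis, cholesterol synthesis, integrated stress response, p53 targets, cell cycle, interferon, imprinted, histones, apoptosis, DNA repair, polycomb and DNA methylation, LIF, FGF, BMP and Wnt.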

Additional observations from a re-analysis of the deposited data

Results flagged for a closer look

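In 5 genes the change over 7 days differed between the genotypes by the interaction test itself (edgeR). For Aoah the adjusted p was 0.0152, with no count in any of the 3 knockout libraries of day 7. For Morc1 it was also 0.0152, with an interaction of -3.99 and 4 counts left in knockout at day 7. For Esrrb it was 0.0152 and for Epha4 0.0152, with interactions of -2.92 and -2.05, and both lost the call in the summed allele-divided counts. For Ankrd45 it was 0.0301, with no count in knockout at day 7.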

How the results depend on the processing

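The number of genes called in the interaction was 5 with TMM, with relative log expression factors and with library totals, 6 at a mean log2 CPM of at least 2 and 8 without the filter on low counts. It was 143 with DESeq2 and 0 with limma-voom. With a replicate block nested in genotype it was 0 (847 at an unadjusted p of at most 0.05), and with a replicate block shared across genotypes 0 (1128 unadjusted). The correlations of deviations between same-numbered samples ran from -0.08 to 0.06. With 3 libraries in a group, such values cannot show whether same-numbered samples shared a culture or a batch. Leaving out 1 library gave 0 to 15 calls, 0 without knockout replicate 3 of day 7 and 15 without knockout replicate 2 of day 0. Of the genes called in any of these 12 fits, 52 were called in 1 fit only and 3 in 11 (Aoah, Esrrb and Epha4). The summed allele-divided counts, added after seeing the data, gave 8 calls, and 796 of the 1319 genes at an unadjusted p of at most 0.05 (60.3%) kept that p and their direction. The cause of these differences was not tested. The number of lists below the median of all genes (25 of 38), the X-linked median and the counts of genes changed between days stayed within 1.5 times or 1 SD under all alternatives run for them. The interaction of Gm2174, called in the summed counts only, had the opposite sign in the whole table (0.97, SE 1102), where it was not called. Depth limits the genes near 0 at day 7, where 3 counts over a group were the floor.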

Other observations

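The summed allele-divided counts called 5 genes that the whole table did not. The desaturase gene Fads1, which makes long polyunsaturated fatty acids, had an interaction of -1.78 there (edgeR adjusted p = 0.0477) and -0.50 in the whole table (adjusted p = 0.291). The transcript 1700037C18Rik was at 3.23 (adjusted p = 0.00173) and 0.84 (adjusted p = 0.750). The muscle chaperone gene Unc45b was at 6.87 (adjusted p = 0.0473) and 3.62 (adjusted p = 0.416), and Igf2os at -7.33 (adjusted p = 0.00793) and -2.37 (adjusted p = 0.565). Gm2174 turned sign, from 0.97 in the whole table (SE 1102, adjusted p = 1.00) to -7.45 in the summed counts (adjusted p = 0.0473). These 3 genes have a group at or near 0 counts, and their fitted values are no bounds.

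Imprinted genes had 4 of 39 lower (10.3%) and 1 higher (2.56%) at an unadjusted p of at most 0.05, against 4.56% and 2.29% of all genes. The median was -0.15, from -0.21 to -0.09 over the fits without 1 library. Of the lower ones, Rian and Meg3 are maternally expressed RNAs of 1 domain on chromosome 12. Rian had 200, 210 and 229 CPM in wild type and 159, 167 and 161 in knockout at day 7 (interaction -0.55, SE 0.18, edgeR adjusted p = 0.565), and Meg3 had 1172, 957 and 960 against 631, 619 and 639 (interaction -0.60, SE 0.21, adjusted p = 0.579). The FGF and ERK feedback list had 4 of 23 lower, among them Fgf15 (-0.60, SE 0.16), and 1 higher, Dusp9, with a median of -0.08. Definitive endoderm genes had a median of -0.26 (2 of 14 lower, none higher), with the transcription factor gene Hnf4a at -1.33 (SE 0.46) and the hormone gene Trh at -0.95 (SE 0.39). For Trh at day 0, wild type replicate 1 lay apart. In the summed counts it had 80.7 CPM, against 218 and 215 in replicates 2 and 3 and 221 to 232 in knockout.

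Primitive endoderm genes had a median of -0.24 (1 of 20 lower, 2 higher), from -0.30 to -0.01 over the fits without 1 library and -0.20 in the summed counts. The feeder fibroblast list had a median of -0.21 (2 of 13 lower, none higher), from -0.75 to -0.15 over those fits and -0.27 in the summed counts. Both were below 0 in all 12 fits. Over all genes, 4.56% were lower and 2.29% higher at an unadjusted p of at most 0.05. The other medians were: formative and primed -0.08, 2-cell-like 0.10, germline 0.10, trophoblast 0.05, surface ectoderm -0.10, extracellular matrix -0.12, X-inactivation centre -0.04, escape -0.05, sirtuins 0.02, mitochondrially encoded -0.07, cell cycle -0.09, interferon -0.22, histones -0.05, apoptosis -0.05, DNA repair -0.11, polycomb and DNA methylation -0.10 and Wnt -0.04. Of these, surface ectoderm was 0.08 and interferon 0.07 in the summed counts, and the X-inactivation centre was -0.27. The mean had the other sign from the median for 2-cell-like (-0.10), germline (-0.13), cardiac and contractile (-0.06), sirtuins (-0.02) and Wnt (0.27). With genes that have no count in a group at their bound, germline was 0.35, interferon -0.31 and extracellular matrix -0.06.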
